A study of Caenorhabditis elegans with 18 samples.

Results

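The uaf-1(n4588); rbm-5(n5119) double mutant of Caenorhabditis elegans was set against the uaf-1(n4588) single mutant, both as embryos. The libraries were taken by their strain labels: 3 of the double mutant and 3 of uaf-1(n4588), which is 6 of the 18 in the series. Both strains carry the n4588 allele of uaf-1, and by label they differ in the n5119 allele of rbm-5 alone. The other 12 libraries, 3 each of uaf-1(n4588); rbm-5(n5132), rbm-5(n5119), rbm-5(n5132) and wild type, entered the same model and are given where they place a result. The RNA was total RNA from embryos that bleach had released out of staged adults. Whether the 3 libraries of each strain were grown as separate cultures is not stated, so p-values measure only the spread between these libraries. How either strain was built or outcrossed is not stated either, so variants other than n5119 that differ between the strains cannot be told apart from it.

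The gene uaf-1 encodes the large subunit of U2AF, which binds the pyrimidine-rich stretch before a 3′ splice site and brings the U2 particle to the intron. RBM-5 is an RNA-binding protein whose human relative RBM5 is known as a regulator of alternative splicing. In C. elegans, mutations in uaf-1 were found through their effect on a muscle phenotype of unc-93, and transcripts of tos-1 have served as a readout of uaf-1 function. The comparison asks what an rbm-5 mutation adds to embryos in which U2AF is already impaired.

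Each library is a list of transcript events with an FPKM value (fragments scaled to transcript length and to the library's mapped fragments). The level of a gene is the summed FPKM of its transcript starts. Read depth is unknown, since no counts were used. Of the 6 libraries, double-mutant replicate 1 stood apart: 32.1% of its entries were at 0, against 26.7–29.2% in the other 5 by the same count. Its 10 highest starts held 43.8% of the summed start FPKM, against 27.4% in uaf-1(n4588) replicate 1 and 8.03–10.8% in the other 4. In every other strain of the series replicate 1 also held the largest such share, 21.3–31.8%, against 7.57–11.8% in replicates 2 and 3. The cause was not tested. Pairs from the same strain were no closer (Spearman's rho across genes, which are not independent, 0.839–0.894 over 6 pairs, median 0.875) than pairs across strains (0.833–0.892 over 9 pairs, median 0.880). The labelled stage was checked with marker genes. Early zygotic regulators summed to 369–407 FPKM in the double mutant and 310–436 FPKM in uaf-1(n4588), and maternal genes to 952–2129 FPKM in the double mutant and 1027–1466 FPKM in uaf-1(n4588). Late embryo tissue genes summed to 625–969 FPKM in the double mutant, a range that held the 843–919 FPKM of uaf-1(n4588). Whether the embryos of both strains were of the same age was not tested. Summed vitellogenins of the adult intestine, summed larval and adult collagens, and 1 major sperm protein gene reached 2.06 FPKM at most in any of the 6. Other sperm genes were not part of this check. In whole embryos, fewer cells of a type and less RNA per cell cannot be told apart.

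The transcripts of both mutated genes were present in every library that listed them, and neither gene passed the test. The level of uaf-1 (III:1062794–1076555) was 163, 166 and 138 FPKM in the double mutant, against 67.1, 105 and 124 FPKM in uaf-1(n4588). The 3 double-mutant libraries were above all 3 of uaf-1(n4588), with a log2 difference of 0.69 (SE 0.25, adjusted p = 0.819 by limma). Levels of 141–210 FPKM in uaf-1(n4588); rbm-5(n5132) and 124–218 FPKM in wild type overlapped those of the double mutant. The level of rbm-5 (I:6215727–6219912) was 79.1, 42.8 and 33.6 FPKM in the double mutant and 31.1, 30.2 and 32.7 FPKM in uaf-1(n4588) (log2 difference 0.62 ± 0.55 SE, adjusted p = 0.821). By starts, double-mutant replicate 1 carried most of that difference, and the n5119 allele did not remove the transcript. By its transcript ends rbm-5 had 94.7, 69.1 and 72.4 FPKM in the double mutant and 57.9, 54.5 and 64.7 FPKM in uaf-1(n4588). All 3 double-mutant libraries then lay above those of uaf-1(n4588) (log2 difference 0.40 ± 0.25 SE, adjusted p = 0.809 by limma). The muscle gene unc-93 (III:3644375–3648822) was low in both strains, at 0.805, 3.01 and 7.01 FPKM in the double mutant and 3.20, 5.12 and 0.755 FPKM in uaf-1(n4588). The level of tos-1 (V:9338859–9344203) was 26.8, 111 and 128 FPKM in the double mutant and 48.0, 123 and 110 FPKM in uaf-1(n4588). For unc-93 and tos-1 the libraries of both strains overlapped, with log2 differences of 0.12 (SE 0.68) and −0.25 (SE 1.53).

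**Figure D1:**
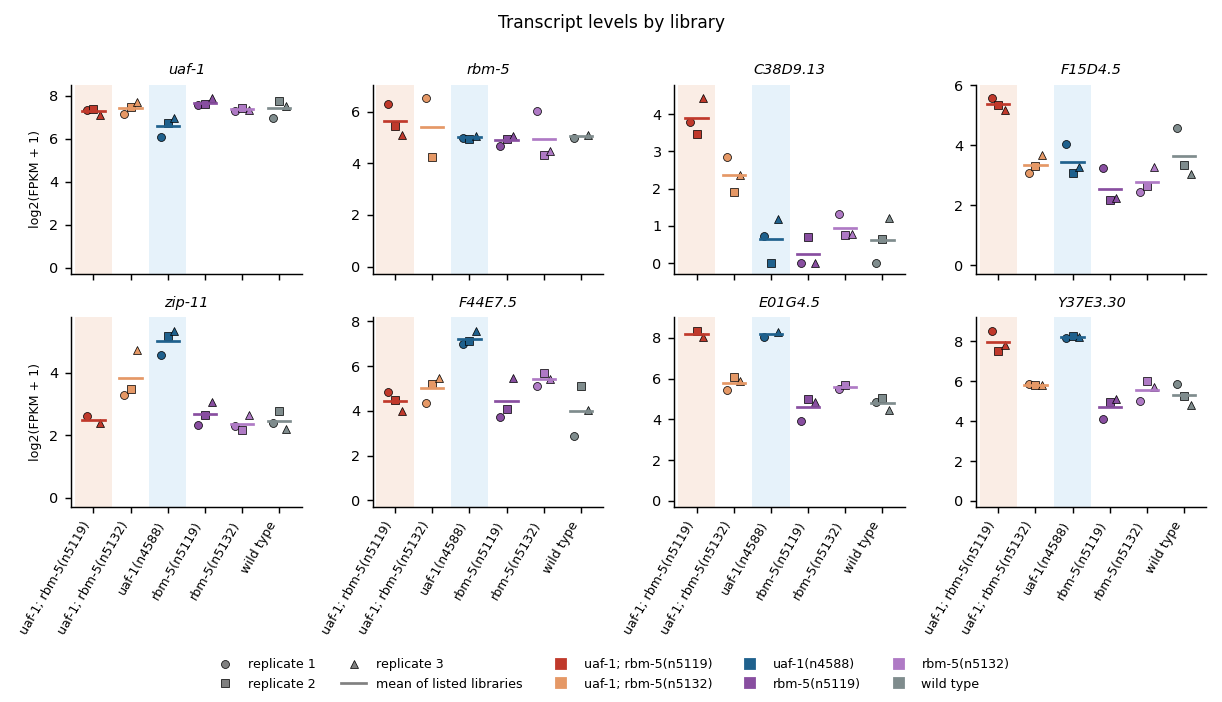
Levels of 8 genes by library, as log2(FPKM + 1), in the 6 strains, with uaf-1(n4588); rbm-5(n5119) shaded red and uaf-1(n4588) shaded blue. Points are libraries, and horizontal bars are means of the libraries that list the gene. The 3 libraries of C38D9.13 and of F15D4.5 in the double mutant lie above those of every other strain, while zip-11 and F44E7.5 lie low in the double mutant and high in uaf-1(n4588).

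Few genes passed the test when n5119 was added to uaf-1(n4588). Of 8198 genes tested, limma called 2 at an adjusted p under 0.05 (0.0244%), 1 higher and 1 lower in the double mutant (0.0122% each). With only the 6 libraries fitted, 0 genes passed. At an unadjusted p under 0.05 there were 406 genes, 4.95% of those tested, with 205 higher (2.5%) and 201 lower (2.45%). The libraries of both strains did not overlap for 1381 genes (16.8%), of which 674 were higher (8.22%) and 707 lower (8.62%) in the double mutant. These shares are the background for every count below. The median log2 difference over all genes was −0.14 in the values as deposited and 0.11 when libraries were scaled to the same median, a shift of 0.25, so changes of that size turn with the scaling. No chromosome stood out: between 3.81% (III) and 5.57% (IV) of the genes tested on each had an unadjusted p under 0.05, and chromosome I, which holds rbm-5, had 5.52%.

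The gene called higher was C38D9.13, annotated as a noncoding RNA (V:17573208–17574227, plus strand). Its levels were 12.8, 10.1 and 20.7 FPKM in the double mutant, against 0.647, 0 and 1.28 FPKM in uaf-1(n4588). The lowest double-mutant library was above the highest of uaf-1(n4588), with a log2 difference of 3.26 on the log2(FPKM + 1) scale (SE 0.41, adjusted p = 0.00964). The other double mutant, with n5132, had 6.24, 2.79 and 4.12 FPKM, while the 9 libraries without n4588 reached 1.48 FPKM at most. The call was kept without any 1 of the 6 libraries, but ended when only these 6 were fitted (adjusted p = 0.295) or when replicates 2 and 3 of every strain were used (adjusted p = 0.127). It also ended with a pseudocount of 0.1 FPKM (adjusted p = 0.352) and among genes with a mean of at least 5 FPKM (adjusted p = 0.0554). In rbm-5(n5119) alone C38D9.13 was at 0, 0.626 and 0 FPKM, and the interaction of n5119 with n4588 did not pass (log2 3.65, adjusted p = 0.142).

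The gene called lower was K10D2.5 (III:5172720–5173338, protein coding). It was listed at 0 in double-mutant replicates 1 and 3 and not listed in replicate 2, against 131 and 103 FPKM in uaf-1(n4588) replicates 1 and 2, with replicate 3 not listing it (adjusted p = 0.00964 by limma). It was above 0 in every library of the other strains that listed it, at 46.2–205 FPKM. A value of exactly 0 can be a failed estimate in such lists, and no fold change is given for it. With replicate numbers as a block the call ended (adjusted p = 0.0637), as it did when only the 6 libraries were fitted (adjusted p = 0.110) and with a pseudocount of 5 FPKM (adjusted p = 0.0680). Leaving out any 1 of the 4 libraries that listed it left fewer than the 2 in a strain that the test asked for.

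**Figure D2:**
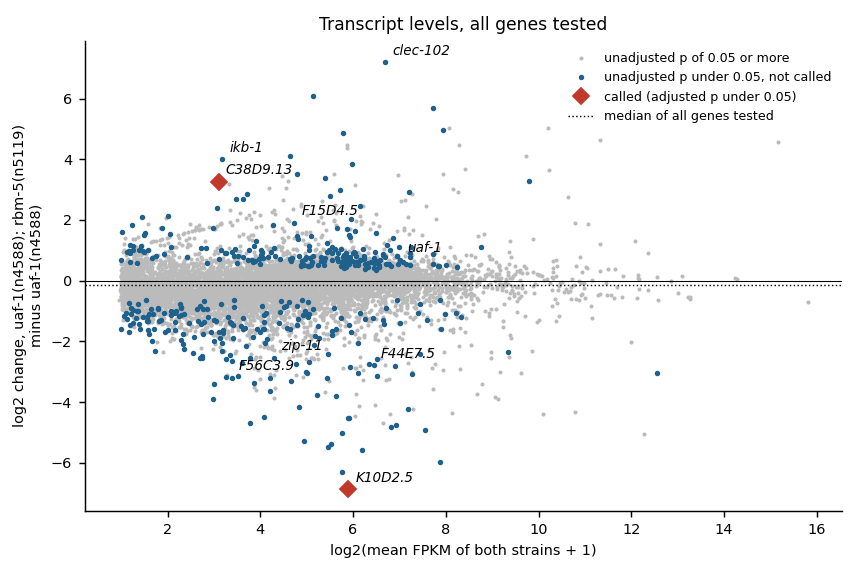
Log2 difference in transcript level, uaf-1(n4588); rbm-5(n5119) minus uaf-1(n4588), against the mean level of both strains for all 8198 genes tested. Red diamonds are the 2 called genes, blue points the other genes with an unadjusted p under 0.05, and the dotted line is the median of all genes, −0.14. Values of genes listed at 0 in a strain, such as K10D2.5, depend on the pseudocount.

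None of the other genes named by rank of p passed the test, and their values are descriptions. Some of those described below passed under alternative settings: F56C3.9 in 3 of 17, zip-11 in 1 of 13 and set-31 in 1 of 11. F23D12.7 did so in 5 of 12 and ikb-1 in 2 of 11. Among those higher in the double mutant, F15D4.5 (II:13245376–13247774) had 46.7, 39.2 and 35.5 FPKM, against 15.4, 7.38 and 8.58 FPKM in uaf-1(n4588) (log2 difference 1.91 ± 0.43 SE, adjusted p = 0.259). Its level was 7.51–11.8 FPKM in the double mutant with n5132 and 3.55–22.9 FPKM in the strains without n4588, so the 3 double-mutant libraries were the highest of all 18. Zipt-2.4, a relative of ZIP zinc transporters (I:5669945–5673352), had 80.3, 107 and 75.5 FPKM in the double mutant and 33.7, 14.4 and 34.8 FPKM in uaf-1(n4588) (log2 difference 1.71 ± 0.41 SE, adjusted p = 0.430). Wild type ranged over 43.1–106 FPKM, close to the double mutant, and the 3 libraries of uaf-1(n4588) lay below every other library. Y71G12B.13 (I:1702105–1708553) had 77.0 and 72.7 FPKM in double-mutant replicates 2 and 3 and 33.4 and 14.4 FPKM in the same replicates of uaf-1(n4588), against 61.0–72.5 FPKM in wild type. Its transcript ends gave overlapping values, with 79.2 FPKM in uaf-1(n4588) replicate 3.

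For a pair of genes in this group the direction depends on which end of the transcript is read. The I-kappa-B homologue ikb-1 (I:9685398–9688653) was at 10.8 and 21.3 FPKM by its starts in double-mutant replicates 1 and 3, and listed at 0 in the same replicates of uaf-1(n4588). Its ends gave ikb-1 10.8 and 21.3 FPKM in the double mutant, against 5396 and 5034 FPKM in uaf-1(n4588), the opposite order. T24B8.7 (II:9041510–9053664) was at 99.5 and 97.5 FPKM by starts in double-mutant replicates 1 and 3, against 31.2, 38.5 and 24.1 FPKM in uaf-1(n4588), while its ends were listed at 0 in double-mutant replicate 3. No direction is drawn for these genes.

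Among the genes lower in the double mutant, zip-11, a bZIP transcription factor (IV:3311276–3313189), had 5.06 and 4.24 FPKM in replicates 1 and 3, against 22.7, 35.2 and 39.7 FPKM in uaf-1(n4588) (log2 difference −2.53 ± 0.43 SE, adjusted p = 0.0717). Both double-mutant libraries lay within the wild-type range of 3.55–5.84 FPKM, while the double mutant with n5132 ranged over 8.75–25.3 FPKM. F56C3.9 (X:1391800–1393991) had 0.722, 1.13 and 0.995 FPKM in the double mutant and 28.3, 12.65 and 13.1 FPKM in uaf-1(n4588) (log2 difference −3.19 ± 0.55 SE, adjusted p = 0.0717). In all other strains F56C3.9 was at 7.22 FPKM or below, so uaf-1(n4588) alone was high. Y48G9A.11 (III:2112416–2116897) had 1.59, 2.27 and 0.920 FPKM in the double mutant and 6.003, 8.034 and 10.85 FPKM in uaf-1(n4588) (log2 difference −1.84 ± 0.34 SE, adjusted p = 0.102). Its level was 8.33–11.996 FPKM in rbm-5(n5132) and 1.39–4.15 FPKM in wild type. Set-31, which encodes a SET-domain protein (V:14417903–14420144), was listed at 0 in double-mutant replicates 1 and 2, against 14.1 and 13.6 FPKM in uaf-1(n4588) replicates 2 and 3. F23D12.7 (X:14453557–14453835) was listed at 0 in the 3 double-mutant libraries, against 24.8 and 3.35 FPKM in uaf-1(n4588) replicates 1 and 2, but its ends were at 0 in every library that listed them.

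Genes that respond to uaf-1(n4588) were then read in the double mutant. In the same model 15 of 8436 genes (0.178%) were called between uaf-1(n4588) and wild type, a contrast added after the values had been seen. It shares the uaf-1(n4588) libraries with the comparison described here, so values are given side by side and no overlap is drawn. Of the 15, 12 were also tested between the double mutant and uaf-1(n4588), and none was called there. In some of them the double mutant overlapped uaf-1(n4588) by transcript starts. E01G4.5 (II:13472401–13473995) had 324 and 268 FPKM in double-mutant replicates 2 and 3 and 266 and 318 FPKM in uaf-1(n4588) replicates 1 and 3, against 21.3–32.6 FPKM in wild type. Y37E3.30 (I:2149825–2151826) had 366, 185 and 226 FPKM in the double mutant and 289, 311 and 302 FPKM in uaf-1(n4588), against 27.3–57.8 FPKM in wild type. The long noncoding RNA linc-8 (II:2501838–2503802) had 72.4 and 107 FPKM in double-mutant replicates 1 and 3 and 178, 92.1 and 93.5 FPKM in uaf-1(n4588), against 27.1–33.0 FPKM in wild type. All 3 genes were well above wild type in both strains with n4588 set against each other here.

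Others of the 12 were low in both strains, or high in both. The gene sna-3 (III:6202622–6206211) had 66.1, 62.4 and 53.5 FPKM in the double mutant and 42.8, 44.4 and 56.3 FPKM in uaf-1(n4588), against 106–144 FPKM in wild type (log2 0.34 between the first pair, SE 0.19, adjusted p = 0.819). Amdh-1, an amidohydrolase gene (III:6251811–6271283), had 1.41, 3.59 and 4.496 FPKM in the double mutant and 3.07, 2.68 and 2.62 FPKM in uaf-1(n4588), against 20.8 and 15.4 FPKM in wild type. Y116A8B.98, a noncoding RNA (IV:17220003–17220816), was higher than wild type in both, at 9.55 and 19.4 FPKM in double-mutant replicates 2 and 3 and 9.72, 8.26 and 7.37 FPKM in uaf-1(n4588), against 1.41–2.12 FPKM. By starts, the libraries of the double mutant and of uaf-1(n4588) did not overlap in 4 of the 12, against 16.8% of all genes. In these 4 genes those of the double mutant lay nearer to wild type. They were zip-11, ikb-1, F23D12.7 and F44E7.5, and ikb-1 and F23D12.7 are the genes above whose ends did not follow their starts. F44E7.5 (V:5778817–5780922) had 27.9, 21.5 and 15.04 FPKM in the double mutant, against 125, 138 and 189 FPKM in uaf-1(n4588) and 6.27–33.0 FPKM in wild type (log2 −2.77 between the first pair, SE 0.53, adjusted p = 0.103). The 15 genes were chosen as different from wild type in the same uaf-1(n4588) libraries that the comparison uses, so nothing is read from the direction.

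The 2 double mutants were compared directly, which avoids the shared libraries. Of 8062 genes, 4 were called (0.0496%), 3 higher (0.0372%) and 1 lower (0.0124%) in the double mutant with n5119. E01G4.5 was at 324 and 268 FPKM with n5119, against 42.9, 66.3 and 57.6 FPKM with n5132 (log2 2.41, SE 0.33, adjusted p = 0.0416). Y37E3.30 was at 366, 185 and 226 FPKM with n5119, against 56.8, 56.1 and 55.3 FPKM with n5132 (log2 2.13, SE 0.34, adjusted p = 0.0423). In both genes the libraries with n5119 lay above the 3 with n5132. Both calls ended without any 1 library of the double mutant with n5132 (adjusted p = 0.0600–0.108 for E01G4.5 and 0.118–0.150 for Y37E3.30), and with transcript ends in place of starts (0.0774 and 0.261), with log2 differences between 1.54 and 2.54. They also ended after scaling to the same median (0.274 and 0.208), with replicate numbers as a block (0.0672 and 0.151), with only the libraries of both double mutants fitted (0.222 for each), with no minimum mean (0.0553 and 0.0646) and with the larger of start and end sums (0.0506 for each). For Y37E3.30 it also ended without any 1 library of the double mutant with n5119 (0.106–0.154). The other calls rest on values at 0: Y45G12B.3 was at 10.8 and 13.04 FPKM with n5119 and listed at 0 in both libraries with n5132 that listed it, and C07D10.6 was listed at 0 in all 3 libraries with n5119 and at 109 and 139 FPKM in replicates 2 and 3 with n5132. F15D4.5 and C38D9.13, highest in the double mutant with n5119, did not pass against the other double mutant (log2 2.01, adjusted p = 0.220, and log2 1.52, adjusted p = 0.629).

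Splicing was read as the share of inclusion. For exons and introns this is the FPKM of the form that holds the exon or keeps the intron, divided by the FPKM of the forms with and without it. For an exon end it is the FPKM of the form with that end divided by the whole locus, so the remainder, here called exclusion, can hold forms other than the named alternative. It was tested as log2((inclusion FPKM + 1)/(exclusion FPKM + 1)). Of 3233 events tested in 1763 genes, limma called 0 (0%). At an unadjusted p under 0.05 there were 132 events (4.08%), 68 higher (2.1%) and 64 lower (1.98%) in the double mutant. For 440 events (13.6%) the libraries of both strains did not overlap, 215 higher (6.65%) and 225 lower (6.96%). The 8 events of smallest p whose libraries did not overlap and whose mean share differed by at least 0.2 are given as values.

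The smallest p belonged to pph-4.2, which encodes a catalytic subunit of protein phosphatase 4. Its exon form III:12375580–12376226 (minus strand, coding) uses a splice donor 383 bases from the one of the other form that all 18 libraries listed, which was at 0 FPKM in each of them. The named form had a share of 1 in the 3 double-mutant libraries, against 0.261, 0.768 and 0.732 in uaf-1(n4588) (log2 difference 5.31 ± 0.89 SE, adjusted p = 0.0869). The share was 1 in all 12 libraries of the other strains too. The remainder of the locus in uaf-1(n4588) was 65.3, 13.6 and 17.3 FPKM, and only in replicate 3 was a listed donor form (III:12375822–12376226) at that value. Set against the same uaf-1(n4588) libraries, the double mutant with n5132 passed the test for this event (log2 5.87, adjusted p = 0.0348), the 1 call among 3241 events there (0.0309%). Between the double mutant with n5119 and uaf-1(n4588) it passed in 3 of 16 alternative settings (lowest adjusted p = 0.000826 by limma). Among them were a pseudocount of 0.1 FPKM (adjusted p = 0.00116) and replicates 2 and 3 (adjusted p = 0.0148). The level of pph-4.2 overlapped between the strains, at 40.1, 77.2 and 57.4 FPKM in the double mutant and 88.4, 58.6 and 64.6 FPKM in uaf-1(n4588).

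A donor form of gon-14, a regulator of gonad development (V:6607505–6607983, minus strand, coding), went the other way. Its share was 0 in the 3 double-mutant libraries, against 0.495, 0.282 and 0.375 in uaf-1(n4588) (log2 difference −5.50 ± 0.97 SE, adjusted p = 0.0869). The form with the alternative donor 34 bases away stood on 105, 57.7 and 39.8 FPKM in the double mutant, against 26.9, 31.04 and 45.6 FPKM in uaf-1(n4588). The form had a share of 0.283, 0.150 and 0.121 in the double mutant with n5132 and of 0.161, 0 and 0 in wild type. It passed the test with a pseudocount of 5 FPKM (adjusted p = 0.0283) and with only the 6 libraries fitted (adjusted p = 0.0443). Neither gon-14 nor pph-4.2 passed the interaction of n5119 with n4588 (adjusted p = 0.998 for both).

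In 3 events the double mutant included an exon or exon end that uaf-1(n4588) lacked. The 72-base exon of nrfl-1, a scaffold protein gene (IV:9120195–9120266), had a share of 0.249 and 0.392 in double-mutant replicates 2 and 3, with both forms at 0 in replicate 1, against 0 in the 3 libraries of uaf-1(n4588) and 0.260, 0.288 and 0.256 in wild type. The 18-base exon of set-18 (I:10592943–10592960), a SET-domain gene, had a share of 0.770, 0.172 and 0.246 in the double mutant, against 0 in the 3 libraries of uaf-1(n4588) and 0.171, 0.111 and 0.375 in wild type. In set-18 replicate 1 carried most of the difference. The set-18 exon was also at 0 in the 3 libraries of rbm-5(n5132), where uaf-1 is intact. Its share was 0, 0.201 and 0 in the double mutant with n5132 and 0.325, 0 and 0.172 in rbm-5(n5119). A lin-41 exon form with an acceptor 12 bases from the other (I:9338503–9338804), from a heterochronic TRIM-NHL gene, had a share of 0.184, 0.358 and 0.187 in the double mutant against 0 in uaf-1(n4588). The lin-41 form stands on 0.846–1.44 FPKM, the form with the other acceptor was at 0 in the 3 double-mutant libraries but was listed with 1.99 and 2.51 FPKM by uaf-1(n4588) replicates 2 and 3, and wild type had shares of 0, 0.171 and 0.247. In rbm-5(n5132) the lin-41 form had shares of 0.361, 0 and 0. Adjusted p was 0.313 for nrfl-1 and 0.847 for set-18 and lin-41. For nrfl-1, double-mutant replicate 1 entered the test and the check for overlap as a log2 ratio of 0, set by the pseudocount alone.

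In the last 3 events the double mutant had a lower share than both uaf-1(n4588) and the libraries of the double mutant with n5132 that listed them. The direct test between the double mutants called 0 of 3252 events (0%). Its adjusted p by limma was 0.402 for T23E7.2 and 0.819 for nsf-1, and C05D11.8 was not tested, with 1 library with n5132 listing it. An exon of T23E7.2 (X:17674118–17674267, 150 bases) had a share of 0.713, 0.587 and 0.668 in the double mutant, against 1 in the 3 libraries each of uaf-1(n4588), of the double mutant with n5132 and of wild type. In the rbm-5 single mutants it was at 0.598–1. The form without the T23E7.2 exon stood on only 0.811, 4.47 and 6.63 FPKM in the double mutant. Against uaf-1(n4588) its adjusted p was 0.847 by limma. An intron of C05D11.8 (69 bases, listed with its flanking bases as III:6424366–6424436) was retained at a share of 0.598, 0.520 and 0.673 in the double mutant, against 0.713, 1 and 1 in uaf-1(n4588) and 1 in all 10 other libraries that listed it. Its log2 difference was −3.02 (SE 0.78, adjusted p = 0.847), and without uaf-1(n4588) replicate 1 it was −4.18 and passed (adjusted p = 0.00667). An acceptor form of nsf-1, a vesicle fusion ATPase gene (I:7770065–7770227), had a share of 0.429, 0.304 and 0.377 in the double mutant, against 0.888 and 0.871 in uaf-1(n4588) replicates 1 and 3 and 0.575–0.824 in the double mutant with n5132 (adjusted p = 0.459). The form with the acceptor 12 bases away stood on 23.6, 26.9 and 32.5 FPKM in the double mutant, against 6.06 and 7.60 FPKM in uaf-1(n4588) replicates 1 and 3. No wild-type library listed the event.

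**Figure D3:**
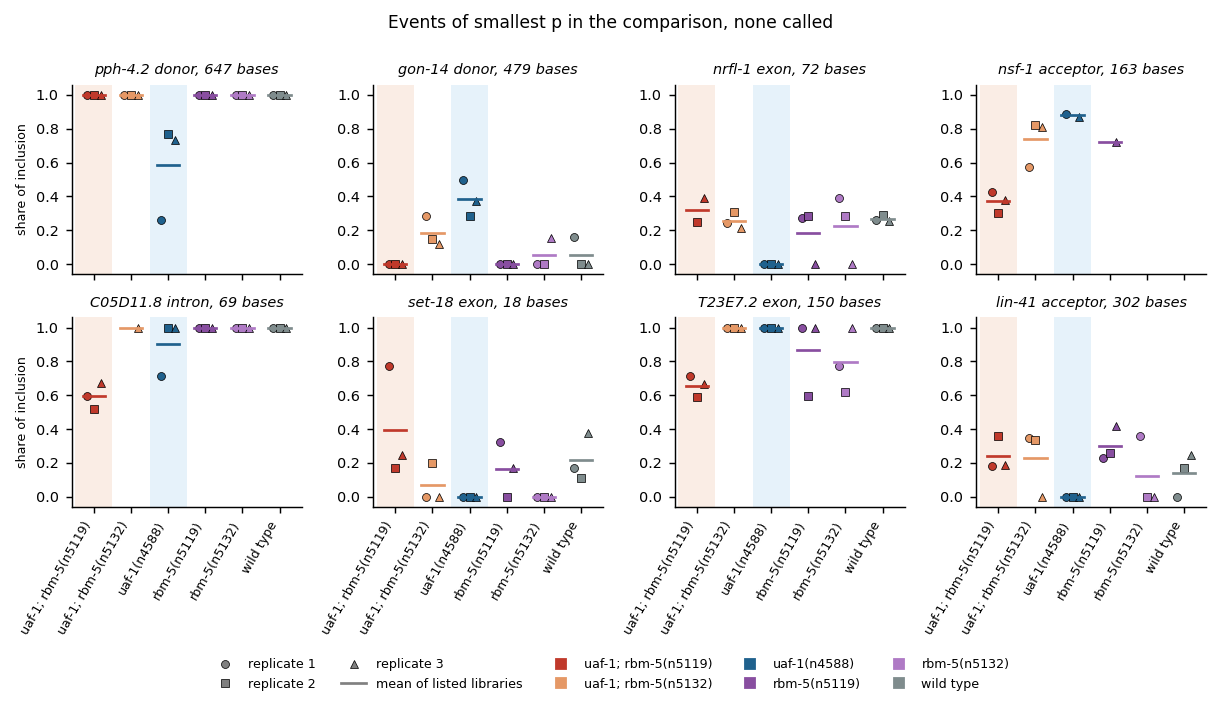
Share of inclusion by library for the 8 events of smallest p, none of them called. Points are libraries, bars the means of the libraries with a share, and uaf-1(n4588); rbm-5(n5119) is shaded red and uaf-1(n4588) blue. The pph-4.2 form is at 1 everywhere except in uaf-1(n4588), and the T23E7.2 exon and the C05D11.8 intron are at 0.520–0.713 in the double mutant.

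To read splicing that differs with uaf-1(n4588) in the double mutant, events were chosen in libraries outside the comparison. Between uaf-1(n4588); rbm-5(n5132) and rbm-5(n5132), 3 of 8345 genes (0.0359%) and 12 of 3055 events (0.393%) were called, the events in 8 genes with 3 higher and 9 lower. Of these 12, none was called between the double mutant with n5119 and uaf-1(n4588), and adjusted p lay between 0.847 and 0.998. The shares of both strains overlapped, ties included, in every one of these events except the brd-1 intron. A p that misses the threshold does not show that the strains are alike, and the standard errors of these log2 differences were 0.31–0.98. Both strains used for the choice carry n5132, so an event that n5132 returns to wild type would not be called between them. The pph-4.2 form was called by limma between uaf-1(n4588) and wild type (adjusted p = 0.0164) but lay outside these 12. Its share was 1 in every library of both n5132 strains and of wild type. Whether n5132 accounts for that was not tested, since only the same uaf-1(n4588) libraries differ. The set therefore cannot decide whether an rbm-5 mutation moves splicing back toward wild type.

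The first of these events were in fkh-7, a forkhead transcription factor gene, and sao-1. The shorter fkh-7 exon (IV:5608369–5608444) starts at an acceptor 57 bases downstream of that of the longer one. It had a share of 0.446, 0.425 and 0.439 in the double mutant and 0.350, 0.419 and 0.445 in uaf-1(n4588), against 0 in all 9 libraries without n4588 (log2 0.18 between the first pair, SE 0.31). The 63-base exon of sao-1 (V:13964759–13964821) was at 0 in the 3 libraries of the double mutant and the 3 of uaf-1(n4588), against 0.249, 0.349 and 0.402 in wild type. In both genes the 6 libraries lay apart from all those without n4588.

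In 3 more genes a form of wild type was at 0 in every double-mutant library. The acceptor forms of B0001.7 (IV:12152322–12152515) and of the neuropeptide gene flp-1 (IV:9145521–9145607) were at 0 in the 6 libraries, against 0.570–1 and 0.528–0.673 in wild type. The 147-base exon of the troponin T gene tnt-3 (X:7938516–7938662) was at 0 in the 3 double-mutant libraries and at 0.146, 0 and 0 in uaf-1(n4588), against 0.594–0.610 in wild type. Where a form is at 0 in both strains, the log2 ratio moves with the level of the gene: for flp-1 it was 1.30 although no share differed. The shorter exon form of spe-48, a sperm gene (I:1953349–1953549), was likewise at 0 in the 6 libraries, against 0.132–0.206 in wild type.

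In the remaining events the mean share of the double mutant lay apart from that of uaf-1(n4588) in part. Retention of a 42-base intron of brd-1, the BARD1 homologue (listed with its flanking bases as III:6887378–6887421), had a share of 0.663, 0.612 and 0.385 in the double mutant, against 0.679, 0.668 and 0.729 in uaf-1(n4588) and 0.233 and 0.234 in wild type. All 3 double-mutant values lay below those of uaf-1(n4588), by little except in replicate 3 (log2 −0.79, SE 0.47, adjusted p = 0.993). In let-653, which encodes a matrix protein of the excretory duct lumen, the longer exon (IV:11888697–11889173) had a share of 0.616, 0.598 and 0.538 in the double mutant, against 0.347, 0.558 and 0.450 in uaf-1(n4588) and 0.797, 1 and 1 in wild type (log2 0.73, SE 0.58, adjusted p = 0.993). The shorter let-653 exon (IV:11888697–11888816) was at 0, 0 and 0.238 in the double mutant and at 0 in the 3 libraries of uaf-1(n4588). The group of both adjacent let-653 exons was at 0.362 and 0.451 in double-mutant replicates 1 and 2 and at 0.422 and 0.389 in uaf-1(n4588) replicates 1 and 3, against 1 in wild type. The longer form of spe-48 (I:1953349–1953624) had a share of the locus further from wild type, at 1 in the 3 libraries of the double mutant, against 0.676, 1 and 0.810 in uaf-1(n4588) and 0.496–0.643 in wild type (log2 2.61, SE 0.78, adjusted p = 0.847). The shorter form was at 0 in all 6 libraries, so the remainder of the spe-48 locus in uaf-1(n4588) was not that form. Without uaf-1(n4588) replicate 2 the longer spe-48 form passed the test (log2 3.89, adjusted p = 0.00381).

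An exon of tos-1, the uaf-1 readout named above (V:9343501–9343567, 67 bases), showed no difference beyond the spread. Its share was 0.299, 0.628 and 0.528 in the double mutant and 0.403, 0.516 and 0.687 in uaf-1(n4588), against 0.843, 1 and 1 in wild type (log2 −0.31 between the first pair, SE 1.80, adjusted p = 0.998). In the double mutant with n5132 it was at 0.827, 0.799 and 0.636, and the direct test between the double mutants did not pass (log2 −1.72, SE 1.80, adjusted p = 0.966). The libraries of the double mutant and uaf-1(n4588) overlapped, and those of the double mutant lay below every wild-type library.

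**Figure D4:**
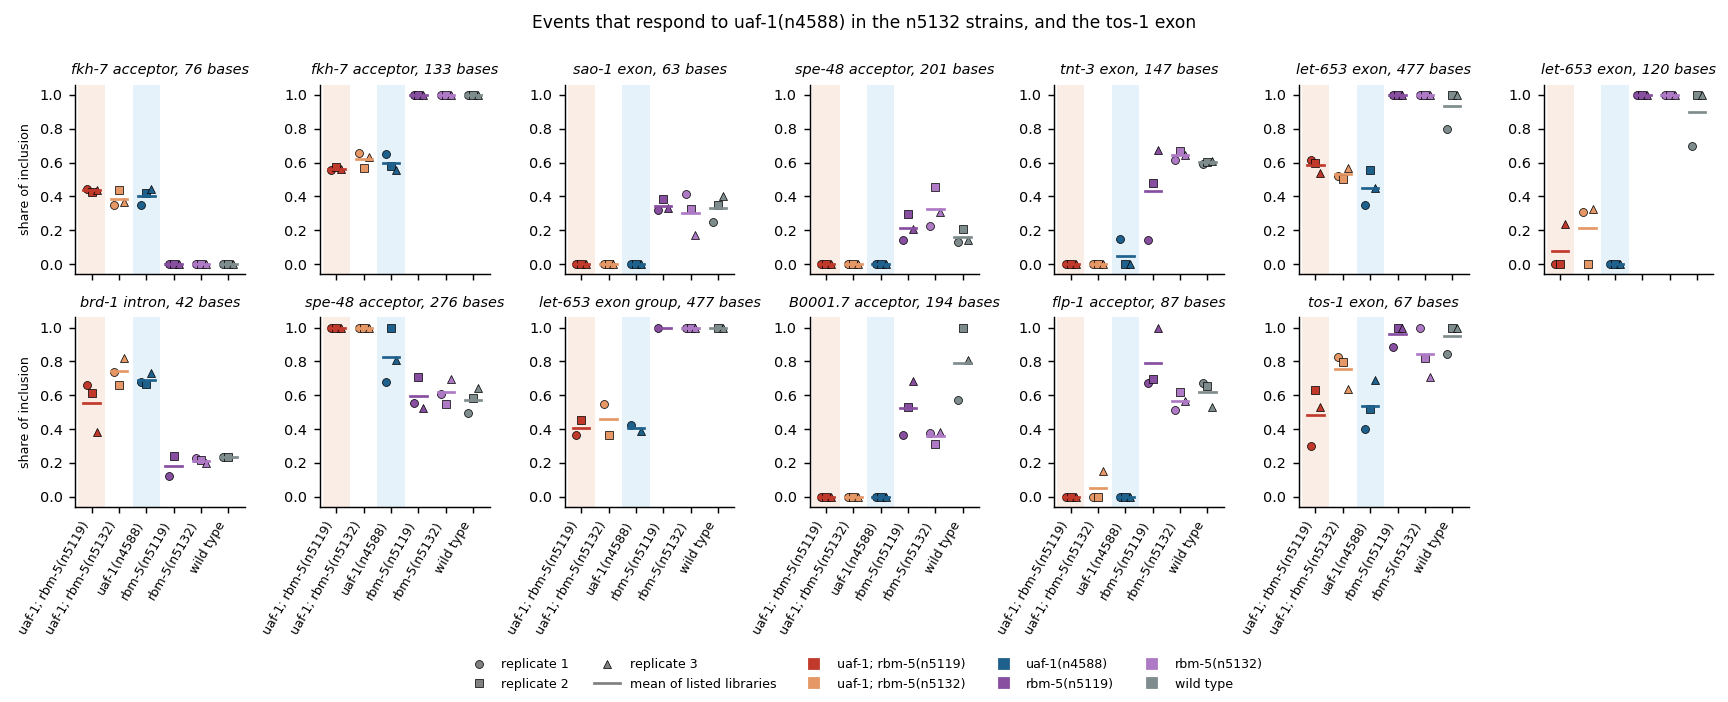
Share of inclusion by library for the 12 events called between uaf-1(n4588); rbm-5(n5132) and rbm-5(n5132), and for the tos-1 exon. Points are libraries, bars the means of the libraries with a share, and uaf-1(n4588); rbm-5(n5119) is shaded red and uaf-1(n4588) blue. In most panels the red points sit with the blue ones, as at the fkh-7 acceptor of 76 bases (0.425–0.446 and 0.350–0.445).

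By type, 1417 of the tested events were alternative exon ends, 949 were skipped exons, 652 were retained introns, and 204 and 11 were groups of adjacent exons and of introns. Of the retained introns, 22 had an unadjusted p under 0.05, 5 retained more and 17 retained less in the double mutant, which is 3.37% against 4.08% over all events. Mean shares cover events listed in all 6 libraries: 295 of the 652 introns, 707 of the 949 skipped exons and 154 of the 204 exon groups. The mean share of retention was 0.584, 0.574 and 0.569 in the double mutant and 0.603, 0.572 and 0.570 in uaf-1(n4588), values that overlapped (exact permutation test, two-sided, p = 0.80, adjusted over 5 types 0.90). Skipped exons had a mean share of 0.476 ± 0.013 in the double mutant and 0.476 ± 0.0076 in uaf-1(n4588) (SD, n = 3 each). Groups of adjacent exons were at 0.613, 0.597 and 0.607 in the double mutant and 0.577, 0.582 and 0.592 in uaf-1(n4588). These did not overlap, and the exact p of 0.10 is the smallest that 3 against 3 libraries can give (adjusted 0.90). The number of listed events of each type per library did not differ beyond the spread either (exact p of 0.30 or more).

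The test of whether n5119 acts differently with and without n4588 is the interaction of both alleles. It called 0 of 7629 genes (141 at an unadjusted p under 0.05, 1.85%) and 0 of 2587 events (86, 3.32%). Between rbm-5(n5119) and wild type, 2 of 8560 genes were called (0.0234%), Y45G12B.3 and F26F2.5, both listed at 0 in rbm-5(n5119), and 0 of 3001 events (156 at an unadjusted p under 0.05, 5.20%).

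Gene lists chosen for embryos, splicing and families of C. elegans held no called gene, so the following are counts and medians of log2 differences, set beside the −0.14 of all genes. Over all genes 3302 of 8198 were higher and 4896 lower in the double mutant as deposited. Scaling raised the median of all genes to 0.11, so the number of higher members in a list rises with that shared shift. Counts after scaling have no count over all genes beside them, and no trend is read from their rise. Factors that recognise 3′ splice sites had a median of 0.41, with 5 of 6 tested members higher in the double mutant as deposited and after scaling, and a median of 0.21 without double-mutant replicate 1. One of them, sftb-1, the SF3B1 homologue, had 128, 128 and 95.7 FPKM in the double mutant and 66.8 and 78.1 FPKM in uaf-1(n4588) replicates 1 and 2 (log2 0.68, unadjusted p = 0.00601, adjusted p = 0.819). Core spliceosome genes had a median of 0.17, with 16 of 20 higher as deposited, 19 after scaling, and 11 of 17 without double-mutant replicate 1. Their helicase gene ddx-15 was higher by its starts (309, 142 and 174 FPKM in the double mutant and 68.8, 94.8 and 115.4 FPKM in uaf-1(n4588), log2 1.11) but not by its ends (log2 0.03). The helicase gene snrp-200 had 133 and 84.4 FPKM in double-mutant replicates 1 and 2 and 67.3, 60.9 and 61.8 FPKM in uaf-1(n4588). SR proteins and other splicing regulators had a median of 0.12 (8 of 12 higher, 9 after scaling), and factors of nonsense-mediated decay 0.22 (5 of 6 higher).

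Eggshell and oocyte genes had a median of −0.38, with 13 of 16 lower in the double mutant as deposited and 9 after scaling. The eggshell proteoglycan gene cpg-2 had 41.7, 13.9 and 11.1 FPKM in the double mutant and 83.5, 53.4 and 68.9 FPKM in uaf-1(n4588) (log2 difference −1.79 ± 0.51 SE, unadjusted p = 0.00309, adjusted p = 0.819). The yolk receptor gene rme-2 had 16.15, 3.13 and 3.48 FPKM in the double mutant and 19.03, 12.15 and 14.4 FPKM in uaf-1(n4588). Egg-2, which encodes an egg surface protein of fertilization, had 9.35, 5.33 and 5.55 FPKM in the double mutant and 13.2, 10.3 and 14.9 FPKM in uaf-1(n4588). In cpg-2, rme-2 and egg-2 replicate 1 of the double mutant was the highest of its 3 libraries. Without it the list's median was −0.78, with 13 of 14 lower, while that of all genes was −0.0037. Maternal regulators of cell fate and P granules had a median of 0.31 (13 of 21 higher), which was 0.20 without double-mutant replicate 1 and 0.037 with replicates 2 and 3 of every strain, and early zygotic regulators 0.42 (14 of 19 higher, 18 after scaling). The endoderm GATA factor gene elt-7 had 72.0, 74.8 and 59.7 FPKM in the double mutant and 37.9, 43.3 and 54.3 FPKM in uaf-1(n4588) (log2 difference 0.61 ± 0.20 SE, unadjusted p = 0.00839). By its ends the difference was 0.20, and without double-mutant replicate 1 the zygotic list's median was 0.12.

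Sarcomere genes of body wall muscle had a median of −0.37, with 19 of 22 lower as deposited, 12 after scaling, and a median of −0.05 without double-mutant replicate 1. That library held the lowest level of 17 of the 22 among the 6. Heat shock and chaperone genes had the lowest median of the lists with at least 6 tested members, −0.82, with 9 of 9 lower as deposited and 8 after scaling, but no member had an unadjusted p under 0.05. Without double-mutant replicate 1, which held the lowest level of 5 of the 9, the median was −0.48 with 7 of 9 lower, and that of the eggshell list was then below it. The small heat shock gene hsp-16.41 had 85.5, 1934 and 1053 FPKM in the double mutant and 216, 1992 and 2252 FPKM in uaf-1(n4588), with overlapping libraries. Its relatives hsp-16.2 and hsp-12.1 were above 0 in uaf-1(n4588) replicate 3 alone, at 3342 and 198 FPKM. Genes of the embryonic apical matrix had a median of −0.07 (8 of 13 lower, 5 after scaling) and intestinal genes 0.04 (6 of 12 higher, 9 after scaling). Cytosolic ribosomal proteins had a median of −0.30 (23 of 30 lower, 15 after scaling), sperm genes 0.06 (4 of 8 higher, 6 after scaling) and long intergenic noncoding RNAs −0.09 (8 of 14 lower, 6 after scaling). The 2 tested histone genes were higher, and of the yolk list only rme-2 was tested.

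In the large families of C. elegans, F-box genes had a median of −0.01 (58 of 116 higher, 75 after scaling), with 2 higher and 6 lower at an unadjusted p under 0.05. The F-box gene fbxa-95 had 3.98, 3.05 and 3.67 FPKM in the double mutant and 8.27 and 12.5 FPKM in uaf-1(n4588) replicates 1 and 3 (log2 −1.30, adjusted p = 0.819). Genes with BATH or MATH domains had a median of −0.21 (19 of 28 lower, 15 after scaling). Bath-7 had 1.27, 0.996 and 2.91 FPKM in the double mutant and 5.88, 3.70 and 4.61 FPKM in uaf-1(n4588), which did not overlap (log2 −1.12, SE 0.29, adjusted p = 0.684). C-type lectins had a median of −0.33 (30 of 45 lower, 27 after scaling), but 0.06 without double-mutant replicate 1. One lectin gene went far the other way: clec-102 had 132 and 279 FPKM in double-mutant replicates 1 and 2, against 0.316, 0.528 and 0.106 FPKM in uaf-1(n4588) (log2 difference 7.21 ± 2.10 SE, adjusted p = 0.819).

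**Figure D5:**
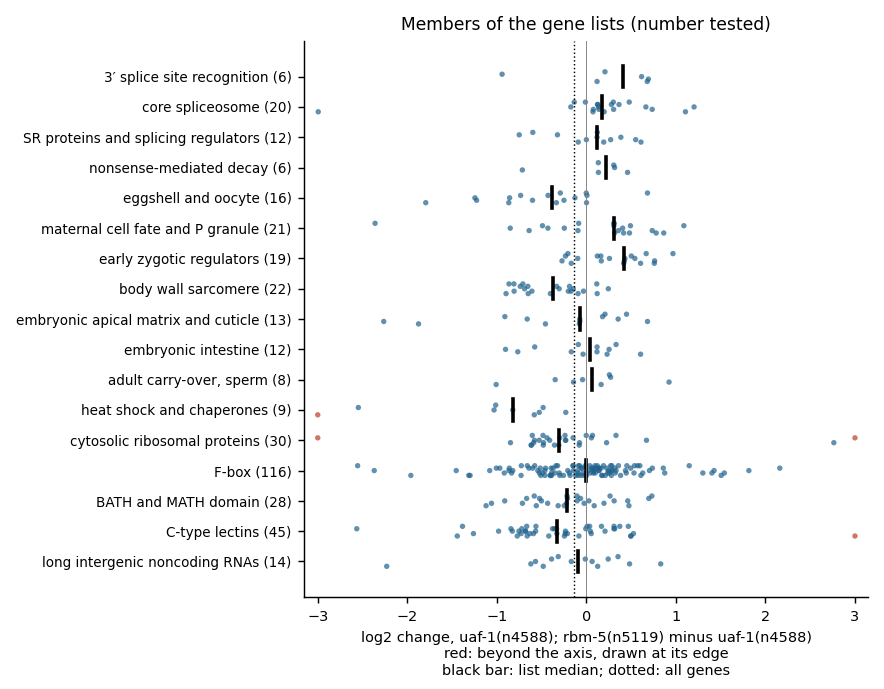
Log2 difference in transcript level, uaf-1(n4588); rbm-5(n5119) minus uaf-1(n4588), for each tested member of the gene lists with at least 6 of them. Black bars are list medians, and the dotted line is the median of all genes, −0.14. The list medians run between −0.82 for heat shock and chaperone genes and 0.42 for early zygotic regulators, and no member was called.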

How the data were processed

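Per the file headers, the deposited values are FPKM, 1 list per library, as the authors computed them. Reads had been mapped with TopHat2 2.0.12 and Bowtie2 to WBcel235, per the submitters' processing notes. The assembler's settings and the event caller are not given in the sources used here. Start events were summed per gene, over loci whose label names a single gene. For alternative exon ends, exclusion was the larger of the start and end sums of the locus minus the form. Of 20574 labels, 19636 matched 1 gene of Ensembl release 115.

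Genes and events were tested where at least 2 libraries of both strains listed them with a mean of at least 1 FPKM. A pseudocount of 1 FPKM was added. Models with 1 mean per strain over 18 libraries were fitted with limma 3.58.1 (R 4.3.3), with an intensity trend for genes only, with Benjamini-Hochberg adjustment over all genes or events of a contrast. An adjusted p under 0.05 was a call, two-sided. The model was tested on simulated data. Exact permutation tests used scipy 1.17.1.

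Named were rbm-5, uaf-1, tos-1, unc-93, called genes, then up to 6 genes a direction and 8 events by smallest p without overlap (higher strain at least 5 FPKM, share difference at least 0.2), up to 4 members per list, and all events called between the n5132 strains. E01G4.5, Y37E3.30, linc-8, sna-3, amdh-1, Y116A8B.98, F44E7.5 and the genes outside this rule were chosen after their values were seen. Members and lists were chosen with earlier results of these data known. Alternatives are in the closing section.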

Additional observations from a re-analysis of the deposited data

How the results depend on the processing

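Limits are the small groups, the unknown depth, values at 0 that cannot be told from failed estimates, and starts and ends of a locus that differ.

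The number of genes called, 2 as reported, was 4 with a pseudocount of 0.1 FPKM, 1 with a mean of at least 5 FPKM, 5 after scaling to the same median, 0 with only the 6 libraries fitted (376 at an unadjusted p under 0.05), 1 when listed in all 3 libraries of both strains, 4 with transcript ends, and 7 with the larger of start and end sums, an alternative chosen after seeing the data. Leaving out 1 library gave 2–5. The number of events called, 0 as reported, was 1 with a pseudocount of 0.1 FPKM, 2 with 5 FPKM, 4 with only the 6 libraries and 4 with replicates 2 and 3. Leaving out 1 library gave 0–1 events, and 0–1 of the 12 events chosen in the n5132 strains.

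Same-numbered libraries did not pair throughout: their deviations correlated at 0.144, 0.159 and −0.0485 for genes and 0.163, 0.0105 and 0.05 for events. Differently numbered libraries correlated at −0.245 to 0.159 for genes and −0.134 to 0.1 for events. Double-mutant replicate 1 was positive with replicate 1 of uaf-1(n4588) but negative with its replicates 2 and 3 (−0.119 and −0.0697 for genes, −0.0559 and −0.134 for events). With the replicate number as a block, 1 gene and 1 event were called.

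Directions that turned belonged to small differences or to loci whose starts and ends disagree, and the cause was not tested. With transcript ends, log2 was −8.33 for ikb-1 (also with the larger sums), −2.35 for T24B8.7, −0.40 for unc-93 (also with the larger sums) and −0.28 for E01G4.5. E01G4.5 was also −0.25 with the replicate block, and Y37E3.30 was 0.038 after scaling. The level of tos-1 turned to 0.053 after scaling and 0.032 with replicates 2 and 3, and ranged between −0.67 and 0.45 without 1 library. Over the same omissions, unc-93 ranged between −0.40 and 0.67, the shorter spe-48 form between −0.12 and 0.13, tnt-3 between −1.27 and 0.54 and the tos-1 exon between −0.72 and 0.23. With replicates 2 and 3, the shorter and longer fkh-7 exons were at −0.0022 and 0.0022, tnt-3 at 0.11 and flp-1 at −0.080. The shorter spe-48 form was −0.27 after scaling. The other 15 named genes and 15 named events kept their direction wherever they were tested.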

Other observations

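Among genes outside the naming rule, chosen after their values were seen, nas-20, an astacin metalloprotease gene, had 2.97, 1.59 and 1.89 FPKM in the double mutant, against 0.785, 0.373 and 0.0733 FPKM in uaf-1(n4588). The libraries of uaf-1(n4588); rbm-5(n5132) held 1.70, 2.07 and 2.47 FPKM, and the 9 libraries without n4588 had 0.268 FPKM at most. Between the double mutant with n5132 and rbm-5(n5132), libraries outside the comparison, nas-20 was called higher (log2 1.58, SE 0.24, adjusted p = 0.0261 by limma). Between the double mutant with n5119 and uaf-1(n4588) it did not pass (log2 1.17, SE 0.25, adjusted p = 0.185).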
